A study of Apis mellifera with 4 samples.

Results

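The Osiris genes of the honeybee form a block on a scaffold of the genome, and their RNA was measured here in queen and worker larvae at 60 hours of larval development. The genes were taken from the deposited gene table by name, as every gene whose symbol starts with Osi, and LOC726094, a gene of the same scaffold, was added by its own name. It was added with its values known, while 8 other genes inside the block were not. This gave 8 of the 11156 genes in the table. Of these, 7 lie in the block (Osi7, Osi9, LOC726094, Osi17, Osi18, Osi19 and Osi20), and Osi23 lies on another scaffold. They were singled out with their queen and worker levels already known, so that the values of the 7 genes by caste and by pool are given as a description, with no test.

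RNA-seq was carried out on 2 pools of queen larvae and 2 pools of worker larvae, each pool made of whole larvae and different from the others. The queen larvae had been moved as newly hatched diploid larvae into queen cells in a hive without a queen, while the worker larvae stayed ungrafted in their own cells in another hive. Caste therefore cannot be told apart from grafting, rearing cell or hive. All larvae came from a closed population of queens inseminated by single drones. Each library held 4949093 to 5476218 reads on exons. The p-values given for other genes measure the spread between these 4 pools only. In whole larvae, fewer cells of a type and less RNA per cell cannot be told apart.

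Osiris genes are an insect family whose members mostly sit side by side in an order that is kept between distant insects. They encode secreted or membrane-bound proteins, and in Drosophila they are switched on in epidermal and tracheal cells while these cells lay down cuticle. Several act there on the surface shape of the cuticle, among them Osi23 (gore-tex), which is needed for the pores of olfactory hairs. LOC726094 carries no Osiris symbol in the table, and its role is not known from it.

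On the Amel_4.5 build, the 7 genes span 81.3 kb, between positions 586801 and 668106 of their scaffold. Osi7 starts the block at 586801 to 590320, and Osi9 lies at 598846 to 601899. LOC726094 stands apart from the others in the middle, at 628806 to 632477. The other 4 genes are packed at the far end: Osi17 (654503 to 659654), Osi18 (659370 to 661472), Osi19 (662465 to 665221) and Osi20 (665302 to 668106). Only 80 bases separate Osi19 from Osi20, and the spans of Osi17 and Osi18 overlap by 285 bases, so that reads in the overlap could have been counted for either. The genes have 2 to 4 exons and 920 to 3152 bases of exon. Their medians are 3 exons and 1656 bases, against 6 exons and 2052 bases over all 7833 genes that passed the filter on low counts. Nearly all of their reads matched a single place in the genome (rounded to 100%, against 89.6% to 90.2% over all genes), so that reads shared with similar genes had almost no part in the values.

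In every one of the 7 genes, queen pool 1 had the most reads, queen pool 2 fewer, worker pool 1 fewer again and worker pool 2 the fewest. Osi7 had 1316 and 144 exon reads in the queen pools, against 41 and 1 in the worker pools. Osi9 had 5748 and 687 reads in queens, against 172 and 3 in workers. LOC726094 had 3596 and 110 reads in queens, against 6 and 1 in workers. In these 3 genes the lower queen pool still stood above both worker pools, and worker pool 2 was at the edge of detection.

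The genes at the far end of the block followed the same order. Osi17 had 723 and 91 reads in queens, against 25 and 2 in workers. Osi18 had 4416 and 463 reads in queens, against 21 and 8 in workers. The 2 castes did not overlap in either gene, although the queen pools differed widely.

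Osi19 had 3763 and 793 reads in queens, against 27 and 8 in workers. Osi20, the member with the most reads in all pools but worker pool 1, had 5870 and 1128 reads in queens, against 163 and 31 in workers. Osi23 was represented by 1 read in queen pool 1 and by no read elsewhere, and no fold is given for it. The gene outside the block was thus not detectable at this depth in 3 of the 4 pools.

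**Figure D1:**
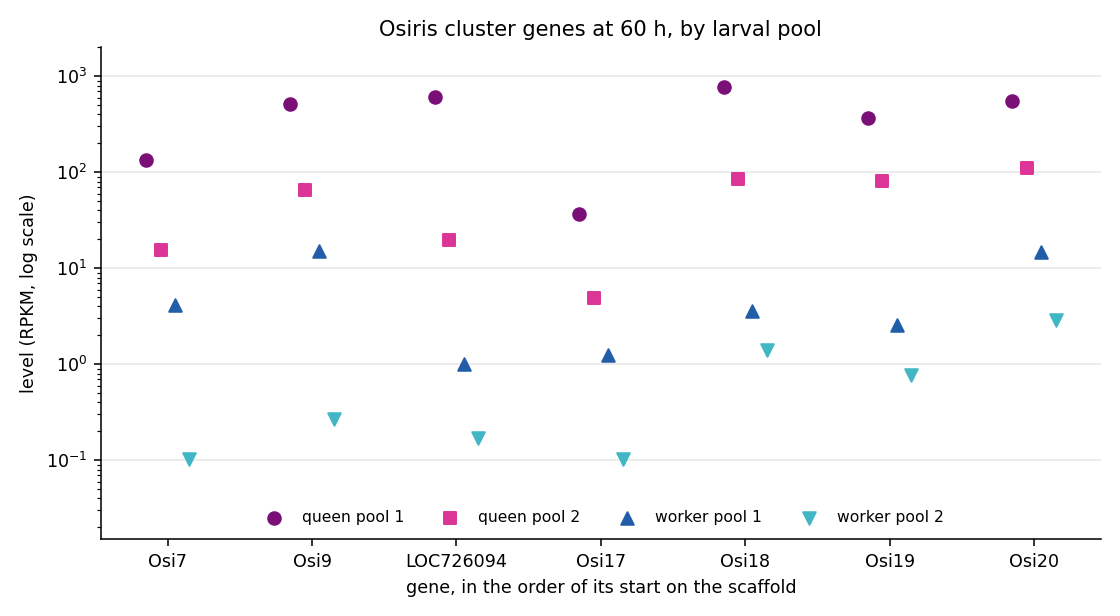
Level of each cluster gene (RPKM, log axis) in each pool, with genes in the order of their start on the scaffold and 1 point for each of the 2 queen and 2 worker pools. In all 7 genes the points fall in the order queen pool 1, queen pool 2, worker pool 1, worker pool 2, from 775 RPKM for Osi18 in queen pool 1 to 0.102 RPKM for Osi7 and Osi17 in worker pool 2.

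Levels between genes were compared as RPKM, reads scaled by the length of the exons and by the reads mapped to genes. In queen pool 1 the highest levels in the block were those of Osi18 (775 RPKM), LOC726094 (614), Osi20 (547) and Osi9 (518), and these genes ranked 96, 126, 140 and 149 among all genes of the table. Osi19 followed at 367 RPKM, Osi7 at 134 RPKM and Osi17 at 37.0 RPKM. In queen pool 2 the order was different. Osi20 led at 110 RPKM, followed by Osi18 at 85.3, Osi19 at 81.2 and Osi9 at 65 RPKM, while LOC726094 reached 19.7 RPKM, Osi7 15.4 RPKM and Osi17 4.90 RPKM.

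Workers had low levels throughout the block. In worker pool 1 the levels ran from 15.2 RPKM (Osi9) and 14.9 RPKM (Osi20) to 1.01 RPKM (LOC726094), and in worker pool 2 from 2.89 RPKM (Osi20) to 0.102 RPKM (Osi7 and Osi17). The median over all genes was 8 and 7.75 RPKM in the queen pools, against 5.85 and 5.53 RPKM in the worker pools. In queens, all 7 genes were therefore above the median gene in pool 1 and all but Osi17 in pool 2. In workers, only Osi9 and Osi20 were above it in pool 1, and none was in pool 2.

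Summed over the block, the 7 genes took 25432 and 3416 exon reads in the queen pools, against 455 and 54 in the worker pools. These sums were 0.487% and 0.0690% of all exon reads in queens, against 0.00831% and 0.00103% in workers. After scaling of the libraries by TMM, a normalization on the bulk of the genes, each step of this ladder was of a similar size. Queen pool 1 was 6.96-fold above queen pool 2 (95% counting interval 6.72 to 7.22), queen pool 2 was 5.74-fold above worker pool 1 (5.21 to 6.35), and worker pool 1 was 8.09-fold above worker pool 2 (6.09 to 10.9). These exact intervals cover counting error only, since each step is 1 pool against 1 pool. In these sums, the gap inside each caste was thus at least as wide as the step between the nearest pools of the 2 castes. Gene by gene, this held by point values for Osi7, Osi9 and Osi17. For Osi18, Osi19 and Osi20 the step was wider than both gaps, in Osi20 within the counting intervals. For LOC726094 it lay between the queen gap and the worker gap.

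The gap between the queen pools was measured for each gene as the log2 ratio of queen pool 1 over queen pool 2, from depth-scaled counts (CPM) with a prior count of 2. LOC726094 had the widest gap of the block at 4.91, rank 4 among the 7833 genes. It was followed by Osi18 (3.15), Osi7 (3.08), Osi9 (2.96), Osi17 (2.86), Osi20 (2.28) and Osi19 (2.15). The median of the 7 genes was 2.96, while 90% of all tested genes lay between the 5th percentile of -0.61 and the 95th of 0.65, around a median of 0.00. A ratio of 2.15 or more was reached by 67 genes, 0.855% of those tested, the 7 included. Genes high in queen pool 1 alone could fail the filter and are then missing from these ranks and shares. LOC725660, with 622 and 6 reads in the queen pools, is such a gene.

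Scaled for depth, the reads of LOC726094 were 30.6-fold higher in queen pool 1 than in queen pool 2 (counting interval 25.3 to 37.3). The corresponding fold was 8.92 (8.10 to 9.84) for Osi18 and 4.44 (4.11 to 4.80) for Osi19. These intervals do not overlap each other, so that the genes of the block differed between the queen pools by unequal factors beyond counting error. Whether they would do so in other queen pools cannot be said from 2 pools.

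The worker pools differed in the same direction, but the genes ranked differently. Osi9 had the highest log2 ratio of worker pool 1 over worker pool 2 of all 7833 tested genes, at 5.17, and Osi7 came at rank 3 with 3.95. Osi17 had a ratio of 2.81, Osi20 2.28, Osi19 1.52, LOC726094 1.49 and Osi18 1.18. Beside the median of 2.28 in the block, the median over all tested genes was -0.01, with the 5th percentile at -0.63 and the 95th at 0.78. A ratio of 1.18 or more was reached by 160 genes, 2.04% of those tested. The worker gaps rest on few reads, as the 1 and 3 reads of Osi7 and Osi9 in worker pool 2 show: their folds were 39.4 (6.68 to 1593) and 55.1 (18.5 to 270), and that of LOC726094 was 5.76 (0.699 to 265), an interval that includes 1.

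**Figure D2:**
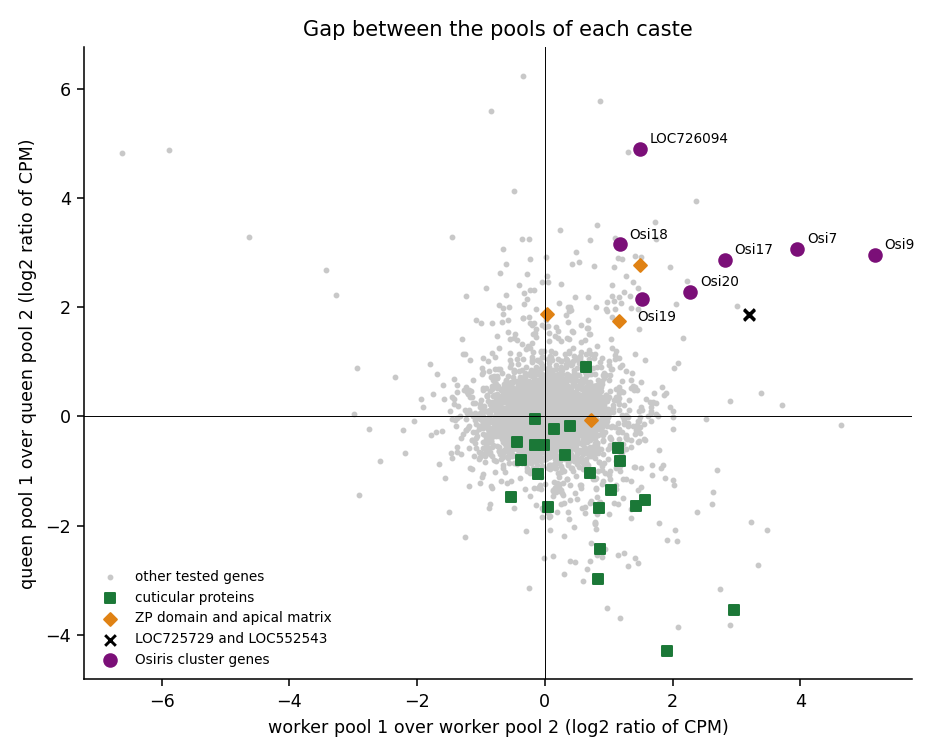
Log2 ratio of the 2 queen pools (vertical axis) against that of the 2 worker pools (horizontal axis) for all 7833 tested genes, with the Osiris cluster genes, the cuticular protein and the ZP domain and apical matrix lists, and the neighbours LOC725729 and LOC552543, whose crosses coincide, in color or black. The 7 cluster genes sit in the upper right, from 2.15 to 4.91 in queens and from 1.18 to 5.17 in workers, while 22 of the 23 cuticular protein genes lie below 0 on the queen axis.

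Between the castes, the log2 fold change of queens over workers ranged from 4.41 to 8.50 over the 7 genes, with a median of 4.72 beside 0.01 over all tested genes. The fold change was 8.50 (SE 2.12) for LOC726094, 6.89 (SE 1.30) for Osi18 and 6.53 (SE 0.97) for Osi19. It was 4.72 (SE 1.55) for Osi9, 4.69 (SE 1.05) for Osi20, 4.62 (SE 1.39) for Osi7 and 4.41 (SE 1.25) for Osi17. Each edgeR SE, here and below, is the size of the log2 fold change over the square root of the quasi-likelihood F statistic. It takes in the spread between the pools of each caste, which was wide in these genes. At the few reads of the worker pools it is approximate.

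At an adjusted p below 0.05 in the edgeR fit over all genes, 4 of the 7 (LOC726094, Osi18, Osi19 and Osi20) were called higher in queens, beside 6.32% of all tested genes called in that direction, 12.0% higher in workers and 18.3% in either. Nothing is read from that count, since the genes were chosen on this contrast. Both queen pools stood above both worker pools in all 7 genes, beside 31.7% of tested genes, and the full order of the 4 pools held in all 7, beside 9.41%. Without queen pool 1 or without queen pool 2, 7 of the 7 were called. Without worker pool 1 or without worker pool 2, 0 were called, while calls over all genes fell to 465 and 298, against 1437 with all pools. In these fits the lone pool is assumed to vary like the other caste. Over the 7 genes the median stood at 3.14 without queen pool 1 and at 7.70 without worker pool 1, on the log2 scale.

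The step from queen pool 2 down to worker pool 1, the nearest pools of the castes, split the block in another way. Queen pool 2 was 22.5-fold (15.3 to 34.3) above worker pool 1 for Osi19, 16.9-fold (10.9 to 27.5) for Osi18 and 14.0-fold (6.24 to 39.0) for LOC726094. For Osi20 the fold was 5.29 (4.49 to 6.28). It was lowest for Osi9 (3.06, 2.58 to 3.63), Osi17 (2.78, 1.77 to 4.53) and Osi7 (2.69, 1.89 to 3.90). The 3 genes with the smallest step here are also the 3 with the widest gap between the worker pools. Worker pool 1 enters both values, so that they are not independent.

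The make-up of the block's reads therefore differed between the pools. LOC726094 gave 14.1% of the block's reads (95% Wilson interval 13.7 to 14.6) in queen pool 1 and 3.22% (2.68 to 3.87) in queen pool 2, against 1.32% (0.606 to 2.85) in worker pool 1 and 1.85% (0.328 to 9.77) in worker pool 2. Osi20 gave 23.1% (22.6 to 23.6) and 33.0% (31.5 to 34.6) in the queen pools, against 35.8% (31.6 to 40.3) and 57.4% (44.2 to 69.7) in the worker pools. The share of LOC726094 was thus highest, and that of Osi20 lowest, in the pool with the most Osiris reads.

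The remaining genes did not follow a single course. Osi9 gave 22.6% and 20.1% of the block's reads in queens, against 37.8% and 5.56% in workers. Osi19 gave 14.8% and 23.2% in queens, against 5.93% and 14.8% in workers, and Osi18 gave 17.4% and 13.6%, against 4.62% and 14.8%. Osi17 stayed at 2.84% and 2.66% in queens, against 5.49% and 3.70% in workers.

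**Figure D3:**
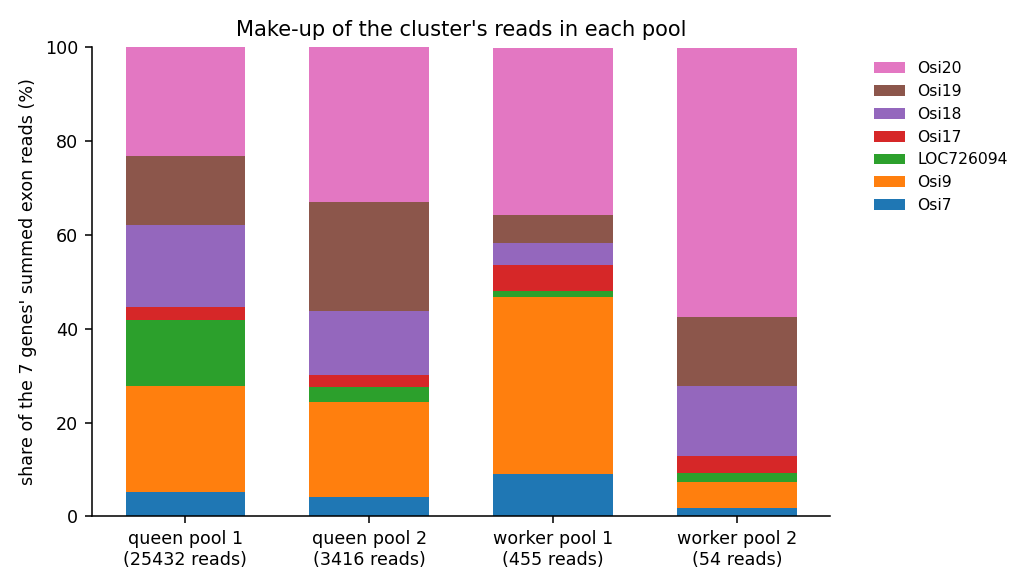
Share of the 7 genes' summed exon reads (%) given by each gene, as stacked bars for the 2 queen pools and the 2 worker pools, with the summed reads under each bar. The share of LOC726094 was 14.1% in queen pool 1 and 1.32% in worker pool 1, and that of Osi20 was 23.1% in queen pool 1 and 57.4% in worker pool 2, where the bar rests on 54 reads.

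Reads on the block were almost free of intron sequence. The share of gene reads that fell outside exons was 1.42% and 0.553% in the queen pools, against 2.15% and 3.57% in the worker pools. Over all genes it was 15.7% and 16.1% in queens, against 13.3% and 15.4% in workers. Osi7 was the exception in the block, with 17.1% of its gene reads outside exons (288 and 16 reads in queens, against 6 and 0 in workers). Reads over exon junctions made up 5.90% and 5.77% of the block's exon reads in queens, against 4.62% and 5.56% in workers, where all genes stood at 16.1% to 16.5%. The genes of the block have fewer exons than the median tested gene, and the part of exon number in the junction share was not tested.

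The genes around the block were taken by position, as the 8 other genes that start between Osi7 and the end of Osi20 and the 5 nearest on each side. Of these 18, 9 passed the filter. With edgeR's quasi-likelihood test and Benjamini-Hochberg adjustment over all tested genes, 3 were called higher in queens, 2 higher in workers and 4 in neither direction. The table does not say which of the genes known only by a LOC number belong to the Osiris family, so that some of these neighbours may be members of it. The queen-high genes flank Osi7 and Osi9, and the worker-high ones lie outside the block.

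LOC725729, which starts 6.60 kb before Osi7, had 1171 and 302 reads in queens, against 52 and 4 in workers. LOC552543, between Osi7 and Osi9, had 663 and 168 reads in queens, against 33 and 2 in workers. Both repeat the order of the 4 pools seen in the Osiris genes, with queen gaps of 1.85 and 1.87 and worker gaps of 3.19 each. Their log2 fold changes were 4.23 (SE 1.01, edgeR Benjamini-Hochberg adjusted p = 0.044) and 4.08 (SE 1.02, adjusted p = 0.049). LOC100576740, just past Osi9, had 25 and 23 reads in queens, against 6 and 4 in workers, and showed no queen gap (0.02), with a log2 fold change of 1.78 (SE 0.42, edgeR adjusted p = 0.044).

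None of these 3 calls held without a worker pool. By edgeR, the adjusted p of LOC725729 was 0.095 without worker pool 1 and 0.17 without worker pool 2, that of LOC552543 0.10 and 0.19, and that of LOC100576740 0.13 and 0.17. That of LOC100576740 was also 0.14 without queen pool 1 and 0.12 without queen pool 2. By DESeq2's Wald test the adjusted p was 0.069 for LOC552543 and 0.17 for LOC100576740.

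The remaining tested gene inside the block did not share its pattern. LOC408538, which ends just before LOC726094, had 49 and 160 reads in queens, against 67 and 11 in workers, and its queen gap of -1.75 was opposite to that of its neighbour. Its log2 fold change was 0.99 (SE 0.87, edgeR adjusted p = 0.48), 1.63 without queen pool 1 (edgeR adjusted p = 0.025) and -0.16 without queen pool 2 (0.91). The 5 untested genes between Osi9 and Osi17 had at most 1.69 RPKM in any pool. Among them, LOC100577654 has 0 annotated exons and could hold no exon reads. The others had too few reads to show whether they share the order of the pools.

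On the outer sides, LOC408539 was called higher in workers, with a log2 fold change of -3.86 (SE 0.39, edgeR adjusted p = 0.0038), but only 25.5% of its reads matched a single place. Its span lies within that of mRpL2, a mitochondrial ribosomal protein gene with a log2 fold change of -0.17 (SE 0.11, edgeR adjusted p = 0.33). Only 6.71% of the mRpL2 reads matched a single place. With single-match reads alone, LOC408539 stood at -2.36 and mRpL2 at -0.38. LOC410626, past the far end, was also higher in workers (-2.29, SE 0.20, edgeR adjusted p = 0.0026). The remaining 2 tested neighbours past that end were not called: LOC410627 at -0.42 (SE 0.27, edgeR adjusted p = 0.33) and LOC552257 at 0.54 (SE 0.51, edgeR adjusted p = 0.50). LOC552257 was called without queen pool 2 (1.13, edgeR adjusted p = 0.015), and stood at -0.44 without queen pool 1. Without worker pool 1, LOC408539 was no longer called, at an edgeR adjusted p of 0.050, nor was it without worker pool 2 (0.064). LOC725660, singled out after its values were seen, starts 21.7 kb before Osi7. It had 622 and 6 reads in queens, against 1 and 1 in workers, and it did not pass the filter on low counts.

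On the rest of the scaffold, 35 genes were tested, and 0 of them had a log2 ratio of queen pool 1 over queen pool 2 as high as the lowest in the block. Their ratios ran from -2.48 to 2.08, so that the widest of these gaps ran in the opposite direction. By edgeR's quasi-likelihood test, 3 of them were called higher in queens and 6 higher in workers.

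**Figure D4:**
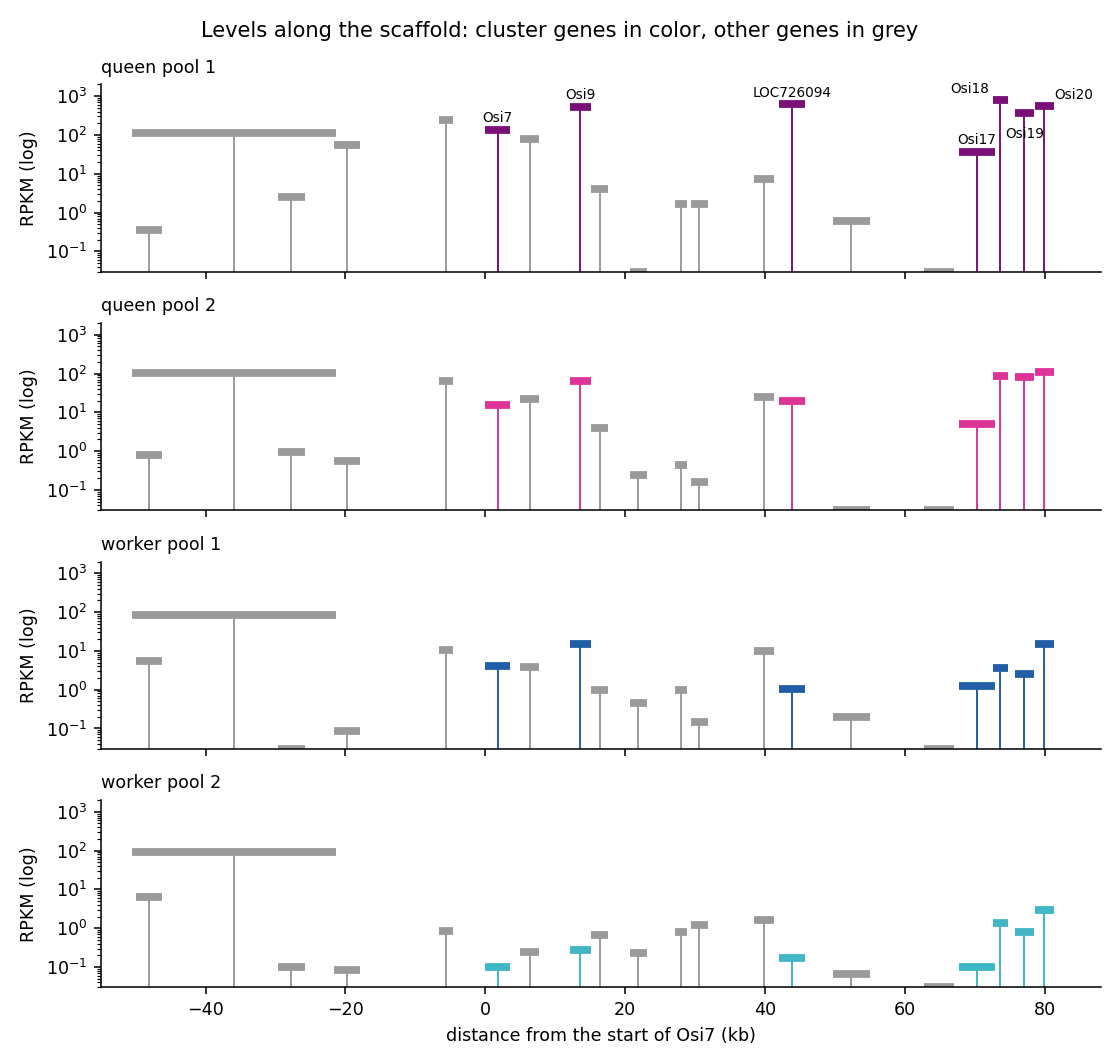
Level of each gene (RPKM, log axis) along the scaffold in the 4 pools, drawn as a bar over the span of the gene against distance from the start of Osi7 (kb), with cluster genes in color and other genes in grey, and genes at 0 or below the axis range at its base. The colored bars drop together through the panels, Osi20 for example at 547 and 110 RPKM in the queen pools and at 14.9 and 2.89 RPKM in the worker pools, and the grey bars of LOC725729 and LOC552543 on either side of Osi7 drop with them.

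The genes elsewhere whose pattern was most like that of the block were found by the distance between log2 CPM profiles over the 4 pools, each centred on its own mean, among 4849 tested genes with a mean of at least 10 RPKM. The median centred profile of the block was 4.19 and 1.19 in the queen pools, against -1.20 and -3.88 in the worker pools. LOC725729 (distance 1.08) and LOC552543 (1.19) from the same scaffold were among the 10 nearest. The others were LOC725507 (1.09), LOC552799 (1.10), SP33 (1.28), LOC551389 (1.49), LOC410452 (1.52), LOC100578613 (1.58), LOC727170 (1.68) and LOC100577157 (2.08). The members themselves lay 0.82 (Osi20) to 2.15 (LOC726094) from their median, and the median candidate lay at 5.94. SP33, a gene with the symbol of a serine protease, had 2039 and 121 reads in queens, against 45 and 7 in workers.

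Genes of cuticle formation were then set beside the block, from lists of symbols. By edgeR's quasi-likelihood test, 16 genes of the 5 lists were called between the castes with all pools. Only 2 of them remained called without worker pool 1 (CPR21 and Y-y), and only Y-y without worker pool 2. Without queen pool 2, 34 genes of the lists were called. The gaps between the queen pools in these lists are given with no test, as the gaps in the block are.

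Cuticular proteins bind chitin or make up the matrix of the cuticle, and here they ran opposite to the Osiris genes between the queen pools. Of 33 such genes 23 were tested, and 22 of these were lower in queen pool 1 than in queen pool 2, by more than 2-fold in 12. The median log2 ratio was -1.03. Of all tested genes, 49.6% were higher in queen pool 1, and 2.20% were more than 2-fold lower in it. The summed level of the 33 cuticular protein genes was 2108 and 6931 RPKM in the queen pools, against 4186 and 2814 RPKM in the worker pools. Between the worker pools, 16 of the 23 were higher in pool 1, the direction of the Osiris genes, with a median log2 ratio of 0.65. Of all tested genes, 48.9% were higher in worker pool 1.

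The gene with the highest ratio among those with at least 10 RPKM was Cpap3-d, at -0.05. The lowest ratios, picked out after the values were seen, were those of CPR27 (-4.29), with 40 and 773 reads in queens against 159 and 39 in workers, and CPR4 (-3.54), with 200 and 2199 reads in queens against 493 and 59 in workers. CPR27 had the lowest ratio of all 7833 tested genes. In the worker pools both were higher in pool 1, by 1.92 and 2.97 on the log2 scale, which is the direction of the Osiris genes there.

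By caste, edgeR called 0 of the 23 higher in queens and 7 higher in workers. None of the 23 was higher in queens at an unadjusted p below 0.05 (0 genes), and DESeq2's Wald test called 0 higher in queens and 6 higher in workers. The called gene with the largest difference was Apd-2, of the apidermin family, with 0 and 4 reads in queens against 19 and 27 in workers and a log2 fold change of -3.89 (SE 0.86, edgeR adjusted p = 0.036). Apd-2 was no longer called without worker pool 1 (edgeR adjusted p = 0.13) or without worker pool 2 (0.18). Without queen pool 1 the count became 6 higher in queens and 6 higher in workers, and without queen pool 2 it became 0 and 14.

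Of the 8 genes of chitin metabolism, 5 were lower in queen pool 1 than in queen pool 2, with a median log2 ratio of -0.14. Over all tested genes, 49.6% had a ratio above 0, so that nothing is read from this count. The chitinases Cht5 and Cht3, the latter picked out after its values were seen, were higher in queen pool 1. A further chitinase, Cht11, had a ratio of 0.03. Cht5, known in insects for digesting the chitin of old cuticle at the molt, had 385 and 36 reads in queens, against 429 and 492 in workers, with a queen ratio of 3.24. Cht3 had 1185 and 199 reads in queens, against 1646 and 1522 in workers, with a ratio of 2.46. For both, queen pool 2 stood apart from the other 3 pools, unlike in the Osiris genes, in which worker pools were lowest. Cda5, a chitin deacetylase picked out after its values were seen, had the opposite ratio of -2.32, with 224 and 1052 reads in queens against 624 and 363 in workers.

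By caste, edgeR called 0 of the 8 higher in queens and 1 higher in workers, with 0 higher in queens at an unadjusted p below 0.05 and 0 by DESeq2. The values depended on the queen pool used. Without queen pool 1 the log2 fold change was -3.4 for Cht3, -4.09 for Cht5 and 0.69 for Cda5. Without queen pool 2 it was -0.92, -0.77 and -1.64. The gene called with all pools was mmy, which makes the precursor of chitin, at a log2 fold change of -0.56 (SE 0.11, edgeR adjusted p = 0.024). It was not called without queen pool 1 (edgeR adjusted p = 0.084), worker pool 1 (0.073) or worker pool 2 (0.10), nor with library totals in place of TMM, where it stood at -0.02.

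The list of ZP domain and apical matrix genes had the highest median queen ratio of the 5 lists, at 1.81. It holds dyl, m and dy, whose Drosophila counterparts are ZP domain proteins that anchor the cell surface to the growing cuticle, and Fur1, a furin-type protease. The gene dyl had 2221 and 618 reads in queens, against 226 and 96 in workers, m had 588 and 149 reads in queens against 48 and 45 in workers, and dy had 102 and 12 reads in queens against 6 and 1 in workers. All 3 were higher in queen pool 1, with log2 ratios of 1.75, 1.87 and 2.78, while Fur1 had a ratio of -0.06.

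Of these 4 genes, edgeR called dyl, at a log2 fold change of 2.66 (SE 0.67, adjusted p = 0.049). The gene m stood at 2.49 (SE 0.64, edgeR adjusted p = 0.051) and dy at 3.50 (SE 1.26, edgeR adjusted p = 0.12). DESeq2's Wald test called 3 of the 4 higher in queens, and edgeR with DESeq2's size factors called 0 (dyl at an adjusted p of 0.050). The adjusted p of dyl by edgeR was 0.14 without worker pool 1 and 0.24 without worker pool 2.

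Among 13 regulators of the response to molting hormone, the median queen ratio was -0.1, with 6 genes above 0 and 7 below. The highest ratio at 10 RPKM or more was that of E75, an early response gene of the hormone, at 1.44. E75 had 574 and 197 reads in queens, against 228 and 308 in workers. The gene ovo, whose Drosophila counterpart (Shavenbaby) drives genes of epidermal cell shape, was picked out after its values were seen. It had 172 and 47 reads in queens, against 57 and 42 in workers, and a ratio of 1.73. The lowest ratio, -1.88, was that of ftz-f1, also picked out afterwards, with 260 and 899 reads in queens against 738 and 545 in workers. By caste, edgeR called 2 regulators higher in queens and 2 higher in workers.

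The called regulators with the largest fold change in each direction were Kr-h1, a response gene of juvenile hormone, at 1.34 (SE 0.21, edgeR adjusted p = 0.014), and Br-c at -1.44 (SE 0.17, edgeR adjusted p = 0.0059). Kr-h1 had 201 and 151 reads in queens, against 47 and 53 in workers, and Br-c 197 and 245 against 438 and 436. Both had narrow gaps inside each caste, unlike the Osiris genes. Without worker pool 1 the edgeR adjusted p was 0.082 for Kr-h1 and 0.060 for Br-c, and without worker pool 2 it was 0.077 and 0.072.

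Of 14 tanning genes, which harden and color cuticle, 11 were tested, and edgeR called 2 higher in queens and 1 higher in workers. Lac2, a laccase that cross-links cuticle, had 16 and 53 reads in queens, against 1 and 2 in workers, with a log2 fold change of 3.99 (SE 0.98, edgeR adjusted p = 0.047) and a queen ratio of -1.68, opposite to that of the Osiris genes. Its call did not hold without queen pool 2 (edgeR adjusted p = 0.090), worker pool 1 (0.22) or worker pool 2 (0.19). Y-b was higher in workers (-0.83, SE 0.14, edgeR adjusted p = 0.018), but not without worker pool 1 (0.10) or worker pool 2 (0.11), nor with library totals (0.12). Y-y had 179 and 177 reads in queens, against 17 and 29 in workers, with a log2 fold change of 2.48 (SE 0.29, edgeR adjusted p = 0.0062). It stood at 2.12 without worker pool 1 and at 2.95 without worker pool 2. The queen ratio of Y-y, -0.08, was the highest of the list at 10 RPKM or more. The median queen ratio of the list was -0.50.

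**Figure D5:**
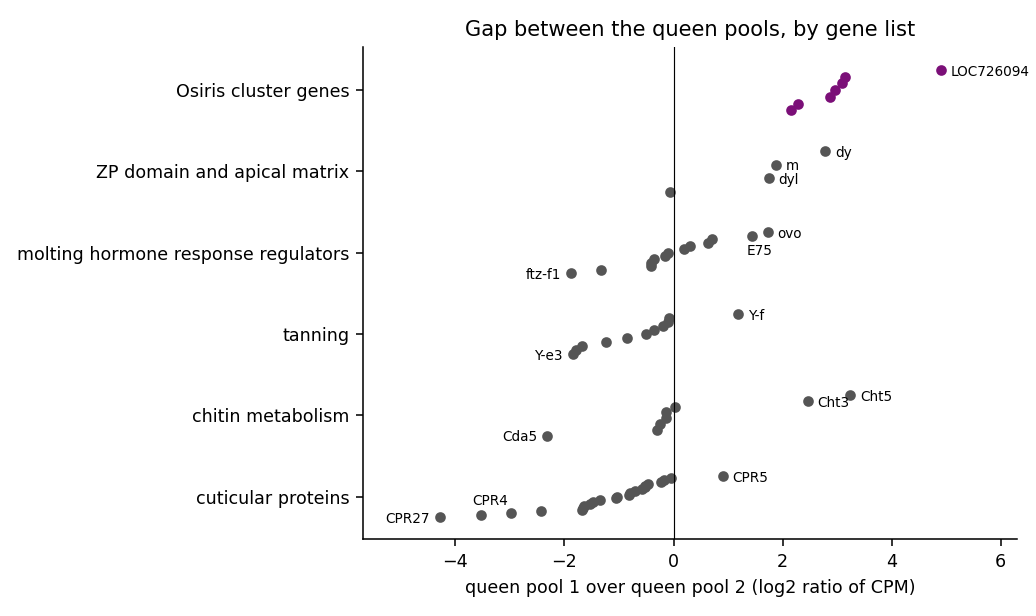
Log2 ratio of queen pool 1 over queen pool 2 for each tested gene of the 5 lists and for the 7 Osiris cluster genes, 1 point per gene, with the rows in list order and the points spread vertically for legibility. The 7 cluster genes lie between 2.15 and 4.91. The latter is LOC726094, which carries no Osiris symbol, and the highest with an Osi symbol is Osi18 at 3.15. Of 23 cuticular protein genes, 22 lie below 0. Cht5, Cht3, ovo, E75, dyl, m and dy lie at 1.44 or above, while ftz-f1 lies at -1.88 and Cda5 at -2.32. Below 0 lie 5 of the 8 chitin metabolism genes and 7 of the 13 regulators of the response to molting hormone. Of all tested genes, 49.6% lie above 0.

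Markers of other tissues were set beside these values. All 5 fat body markers were called higher in workers by edgeR, with a summed level of 8696 and 9608 RPKM in queens, against 80305 and 72772 RPKM in workers. The 2 muscle markers were also called higher in workers, summing to 267 and 247 RPKM in queens against 473 and 479 RPKM in workers. Tsf1 was called higher in workers too, at 52.6 and 46.9 RPKM against 150 and 163 RPKM. It was the only gene listed here for the midgut, and its tissue was not checked in these data, so that nothing is read from it on the midgut. The 2 hemocyte markers were not called and summed to 14.1 and 14.0 RPKM in queens, against 25.8 and 8.41 RPKM in workers. None of these markers was at 0 in any pool, the lowest being Vg, with 2 and 8 reads in queens against 862 and 556 in workers. The 2 tested silk gland markers differed. Fibroin3 was called higher in queens by edgeR, with 69 and 41 reads in queens against 11 and 5 in workers. Fibroin2 had 12 and 7 reads in queens against 11 and 14 in workers, and was not called (log2 fold change -0.86, SE 0.46, edgeR adjusted p = 0.26). The nervous system marker Syt1 was not called. The part of tissue make-up in the caste difference of the Osiris genes was not tested. Between the queen pools, the log2 ratios of the fat body markers ran from -1.32 (Vg) to 0.11 and those of the muscle markers from -0.02 to 0.10, and their part in the queen gap was not tested either.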

How the data were processed

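Reads of 4 RNA-seq libraries were filtered and mapped by the authors to Amel_4.5 with CLC Genomics Workbench (version not given in the sources used here). The authors deposited, per gene, counts of reads on exons, on whole genes and over junctions, counts of single-match reads, and RPKM from exon reads. Gene positions and other annotation were used as deposited. Deposited columns of the authors' test of queens against workers (fold changes, p-values), and a transcript table chosen by it, were not used.

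Exon counts of all 11156 genes entered a fit of edgeR 4.0.16 (R 4.3.3, TMM factors, filterByExpr, quasi-likelihood test, Benjamini-Hochberg adjustment over 7833 genes, threshold 0.05). Pools were grouped by their labels, and pools of the same number hold different larvae. The fit was tested on simulated data. Alternatives were library totals, DESeq2 1.42.0 (size factors, Wald test), single-match reads, no filter, a replicate block, leaving out each pool, RPKM, and a prior count of 0.5. Exact binomial and Wilson intervals have a level of 95%.

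The genes of the block and the lists were chosen with earlier results of these data known. Named are all members, every tested neighbour, the 10 nearest profiles, and from each list the called gene with the largest change in each direction and the gene with the largest queen ratio at a mean of at least 10 RPKM. Lists were matched by symbol. Sequences and strand were not analysed here. Plots were drawn with matplotlib 3.10.9.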

Additional observations from a re-analysis of the deposited data

How the results depend on the processing

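The log2 ratio of the queen pools changed by less than counting error for each of the 7 Osiris genes with library totals, RPKM, single-match reads or a prior count of 0.5, and their queen over worker fold changes stayed positive under every alternative run. With library totals in place of TMM, the median log2 fold change of all genes moved to 0.55 (0.01 with TMM), 4191 genes passed the threshold and queens had the higher level in 88.4% of them (34.4% of 1437 with TMM), and 7 Osiris genes were called in place of 4. Under this scaling mRpL2 stood at 0.37 and was called (edgeR adjusted p = 0.043), and LOC410627 stood at 0.12, both of opposite sign. With the replicate number as a block, 1223 genes and 7 Osiris genes were called; same-numbered pools are different larvae, and their deviations did not go together (r = -0.04 across genes, which are not independent). DESeq2's Wald test called 3 of the neighbouring genes in place of 5. Leaving out 1 pool gave 298 to 1314 called genes, 0 to 7 Osiris genes, 1 to 7 neighbouring genes (LOC725660 and LOC725622, which had not passed the filter with all pools, among those called without queen pool 2), 1 to 34 genes of the lists, and a median Osiris log2 fold change of 3.14 to 7.70. Over these fits LOC408538 ranged between -0.16 (without queen pool 2) and 2.76, and LOC552257 between -0.44 (without queen pool 1) and 1.13, so that both changed sign. Each tested neighbour was compared with every alternative fit, as were the list genes Apd-2, mmy, Lac2, Y-b, Y-y, Kr-h1, Hr46, Br-c, E74, dyl and CPF1. Of these comparisons, 154 kept their direction and their side of the threshold and 40 lost a call. A further 2 gained one in the same direction and 4 changed sign, mRpL2 gaining a call as it did. Other list genes were left out of this count. Among them, CPR27 stood at 2.56 without queen pool 1 and at -1.8 without queen pool 2, and Cda5 at 0.69 and -1.64. The causes were not tested. Depth limits the worker values, which rest on 1 to 172 reads per Osiris gene.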
